A study of Dugesia japonica with 18 samples.

Results

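In the planarian Dugesia japonica, 104 of 25566 gene models had transcripts that fell moderately within the week after X-irradiation and had made at least 50% of that change by day 0.5. They were chosen from measured levels, given as CPM (counts per 1000000 counts of the library that fall on gene models) and averaged over the 3 libraries of a day. The rule asked for a mean of at least 20 CPM on day 0, a log2 change by day 7 above -2 and at most -1, and a log2 change by day 0.5 of at least 50% of the one by day 7, with 0.5 CPM added to each mean. The members are 2.1% of the 4963 gene models with at least 20 CPM on day 0, of which 438 had a day 7 change in the same range. Levels on days 0, 0.5 and 7 chose the members and are therefore given as descriptions. Libraries of days 1, 3 and 5 did not enter the rule.

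The animals were whole bodies of SSP (sexualizing super planarian), a strain that is 1 clone, about 5 mm long and starved before use. Day 0 animals were not irradiated according to the series' design text, and the other groups were taken 0.5, 1, 3, 5 and 7 days after X-rays. Each of the 6 groups has 3 biological replicates, 18 libraries in all, made by Lasy-Seq, a 3' mRNA sequencing method that indexes each RNA sample when it is reverse transcribed. The number of animals behind a library is not stated. The treatment protocol in the labels gives 150 Roentgens without an exception for day 0, and the design text leaves out day 0.5, which the sample titles name. There are no unirradiated animals of days 0.5 to 7 among these samples, so irradiation and elapsed time cannot be told apart in any change from day 0.

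Planarians keep a large population of dividing stem cells, the neoblasts, which renew all tissues. X-rays kill dividing cells. In the related planarian Schmidtea mediterranea, transcripts of neoblasts are known to be lost soon after irradiation, and those of their differentiating descendants later. In RNA of whole bodies, fewer cells of a type and less RNA per cell cannot be told apart. The IDs come without gene names or sequences, so the roles of the 104 members and the markers of planarian cell types could not be looked up, and the labelled tissue was not checked against markers. Therefore only a pair of IDs is named, and other members are described by their place in the list.

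Membership leaned on day 0.5 replicate 2, which entered the rule. The members' median log2 change from the day 0 mean was -0.67 in day 0.5 replicate 1, -0.93 in replicate 2 and -0.79 in replicate 3. Replicate 2 was the lowest of the 3 in 73 members (70.2%), against 40.2% of the 4963 gene models with at least 20 CPM on day 0. Taken alone, replicate 2 met the condition of 50% in 97 members, replicate 3 in 85 and replicate 1 in 56. Without replicate 2 the rule found 73 gene models, 69 of them among the 104. Without replicate 1 it found 131, which include 100 of the 104. The members also scattered more than other gene models on day 0.5, with a median coefficient of variation over 3 libraries of 12.9% against 8.34% in the 4963. In libraries outside the rule it was 7.54% against 6.30% on day 1, 8.88% against 7.28% on day 3 and 10.6% against 7.41% on day 5. The 4963 were not matched to the members in read number on these days. A member's median count was 169 to 189 in the day 1 libraries and 95 to 114 in those of day 5. The part of read number in these coefficients was not tested. On day 1 the members' median log2 change was -1.04, -1.05 and -1.0001 in replicates 1, 2 and 3.

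Together the members held a small part of each library. Their summed counts were 0.779%, 0.744% and 0.729% of the day 0 libraries (replicates 1 to 3), 0.456%, 0.386% and 0.432% of the day 0.5 libraries and 0.358%, 0.346% and 0.357% of the day 1 libraries. In the day 3 libraries they were 0.297%, 0.302% and 0.285%, in those of day 5 0.290%, 0.298% and 0.290%, and in those of day 7 0.283%, 0.295% and 0.291%. Days 0, 0.5, 1 and 3 formed 4 separate ranges, each below the one before, whereas the ranges of days 3, 5 and 7 overlapped. As a mean, the summed level of day 1 was 47.1% of that of day 0. Against day 1, which the rule did not use, the summed level was 83.5% on day 3 and 82.7% on day 5.

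**Figure D1:**
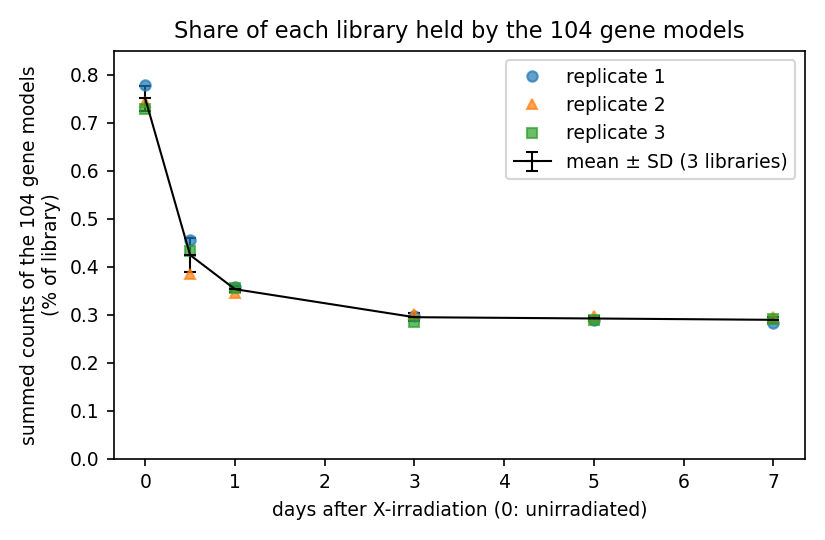
Summed counts of the 104 gene models as a percentage of each library (vertical axis, from 0) against days after X-irradiation, with 1 symbol per replicate and the mean ± SD of 3 libraries in black. The mean share was 0.751 ± 0.0257% on day 0, 0.353 ± 0.00639% on day 1, 0.295 ± 0.00878% on day 3, 0.292 ± 0.0048% on day 5 and 0.290 ± 0.0061% on day 7.

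The levels of single members spanned a wide range. CPM are not divided by transcript length, which is not given, so they rank gene models by reads and not by molecules. The mean levels ran from 20.1 to 496 CPM on day 0, with a median of 37.2. There were 20 members with 100 CPM or more and 33 below 30 CPM. The 10 members with the highest levels made up 38.4% of the members' summed CPM on day 0. By day 5 the mean levels ran from 4.48 to 197 CPM, with a median of 15.6. Every member kept reads in every library, the lowest count being 18, in a day 7 library. All 104 members passed the filter on low counts.

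The member with the highest day 0 level had 515, 479 and 495 CPM on day 0, 324, 252 and 291 CPM on day 0.5 and 236, 233 and 226 CPM on day 1 (replicates 1 to 3). It then had 207, 200 and 183 CPM on day 3, 190, 202 and 198 CPM on day 5 and 181, 211 and 203 CPM on day 7. All its day 1 libraries lay below all those of day 0.5, and all those of days 3, 5 and 7 lay below day 1, while days 3, 5 and 7 overlapped one another. Its log2 change from day 1 to 5 was -0.28 ± 0.09 (SE; edgeR adjusted p = 0.0497). Its first number, the digits of an ID before the hyphen, is shared with 1 other ID, between which reads may have been divided.

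The member next in order of reads had 442, 404 and 401 CPM on day 0, 196, 162 and 181 CPM on day 0.5 and 130.5, 132 and 135 CPM on day 1. It had 97.4, 104.0 and 103 CPM on day 3, 101, 103 and 99.7 CPM on day 5 and 109, 108 and 115 CPM on day 7. Its libraries of days 3, 5 and 7 all lay below those of day 1, and those of day 7 all above those of days 3 and 5. Its log2 change was -0.44 ± 0.09 from day 1 to 5 (SE; edgeR adjusted p = 0.000704).

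Whether the members changed further after day 1 was asked with libraries that the rule did not use. These days lie between days 0.5 and 7, whose levels did enter the rule. The members' median log2 change from day 0 was -0.78 on day 0.5 and -1.30 on day 7. The direction of a change between these days was therefore partly set by the choice of members. From day 1 to 5, 27 of the 104 members (26.0%) were lower and 0 higher by the edgeR quasi-likelihood test (adjusted p below 0.05 over 17129 gene models). Of all gene models tested, 7.2% were lower and 3.75% higher in this step, and of those with at least 20 CPM on day 0, 18.2% were lower and 8.7% higher. Unadjusted p below 0.05 was reached by 47 members that were lower and 0 that were higher. Among the 4963 gene models with at least 20 CPM on day 0 it was reached by 1253 and 835. DESeq2 called 25 members (24.0%) lower and 0 higher, beside 18.1% and 9.41% of the gene models with at least 20 CPM on day 0. The members' median log2 change was -0.29, against 0.01 over all gene models tested. Its values ran from -0.98 to 0.27, and 101 of 104 were below 0. In CPM, all 3 day 5 libraries lay below all 3 day 1 libraries in 51 members and above them in 0, beside 13.1% and 16.6% of all gene models tested. Being below without overlap was thus seen in 49.0% of members and in 25.1% of gene models with at least 20 CPM on day 0.

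Fewer calls were left with some libraries out. In 3 of 6 such fits the members' share lay near that of the gene models with at least 20 CPM on day 0. That set is not matched to the members in level. With all libraries, the median standard error in this step was 0.148 in the members and 0.113 in that set. Without day 1 replicate 1, 15 members (14.4%) were lower, beside 14.9% of the gene models with at least 20 CPM on day 0 and 5.63% of all tested in the same fit. Without day 5 replicate 1 there were 16 (15.4%), beside 14.7% and 5.55%, and without day 1 replicate 3 there were 17 (16.3%), beside 14.5% and 5.39%. With scaling by the ERCC controls (synthetic RNAs, here 190 to 487 counts per library) it was 7 members (6.73%), beside 10.4% and 4.26%. In the other 3 fits without a library of these days, 17.3% to 20.2% of members were lower. Of the gene models with at least 20 CPM on day 0, 14.5% to 15.8% were lower in these fits. Nothing particular to the members is read from the count of calls. Scaling also moved the split over all gene models, of whose calls in this step 65.7% were lower, against 55.1% with library totals and 77.5% with ERCC scaling. The members' median log2 change stayed between -0.32 and -0.24 under every alternative. Of the 73 gene models that met the rule without day 0.5 replicate 2, 18 (24.7%) were lower and 0 higher in the main fit. Beside these were 18.2% and 8.7% of the gene models with at least 20 CPM on day 0. The median log2 change of the 73 was -0.28. This alternative was chosen after seeing the data, and its direction was likewise partly set by the rule.

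Much of the median difference was present by day 3. From day 1 to 3 the members' median log2 change was -0.22 and 92 of 104 were below 0. By edgeR 10 members (9.62%) were lower and 0 higher (adjusted p below 0.05), beside 2.48% and 0.543% of all gene models tested. Of those with at least 20 CPM on day 0, 6.55% were lower and 1.51% higher, which is close to the members' share. Without adjustment, p was below 0.05 in 40 members that were lower and 0 that were higher. Among the 4963 gene models with at least 20 CPM on day 0 these were 843 and 586. DESeq2 called 13 members (12.5%) lower and 0 higher, beside 8.55% and 3.76% of the gene models with at least 20 CPM on day 0 that it tested. In CPM, 46 members had all day 3 libraries below all day 1 libraries and 2 had them above, beside 12.8% and 9.51% of all gene models tested and, for those below, 21.2% of the gene models with at least 20 CPM on day 0. The 10 calls became 4, 5 and 3 without day 1 replicates 1, 2 and 3 (3.85%, 4.81% and 2.88%), beside 4.71%, 5.04% and 4.17% of the gene models with at least 20 CPM on day 0. They became 5, 5 and 4 without day 3 replicates 1, 2 and 3 (4.81%, 4.81% and 3.85%), beside 5.54%, 4.94% and 3.47%. Over all gene models tested these fits called 1.24% to 1.9% lower. With ERCC scaling 1 member (0.962%) was lower, beside 1.97% and 0.741% of all tested. Except without day 3 replicate 3, the members' share was thus below that of the gene models with at least 20 CPM on day 0 in each of these fits. That set is not matched to the members in level.

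In the step from day 3 to 5 no member passed the test. The median log2 change was -0.06, with 71 of 104 below 0, and on CPM scaled by library totals it was -0.01, with 56 below 0. With edgeR 0 members were lower and 0 higher (adjusted p below 0.05), beside 1.1% and 0.0992% of all gene models tested and 3.02% and 0.181% of those with at least 20 CPM on day 0. At an unadjusted p below 0.05 there were 2 members lower and 1 higher. Among the 4963 gene models with at least 20 CPM on day 0 there were 595 and 173. DESeq2 called 0 members in either direction, beside 3.85% lower and 0.424% higher of the gene models with at least 20 CPM on day 0 that it tested. A missed threshold does not show that a level was constant. An interval of 1.96 standard errors on either side of a member's log2 change had a median half-width of 0.30. In 81 of 104 members it lay within 0.5 of 0. It rests on the normal distribution and is narrower than a 95% interval from the edgeR test. In CPM, 4 members had all day 5 libraries below all day 3 libraries and 7 had them above, beside 5.55% and 10.2% of all gene models tested. The lowest log2 change of a member in this step was -0.51 ± 0.16 (SE; edgeR adjusted p = 0.159) and the highest 0.38 ± 0.16 (SE; edgeR adjusted p = 0.439).

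**Figure D2:**
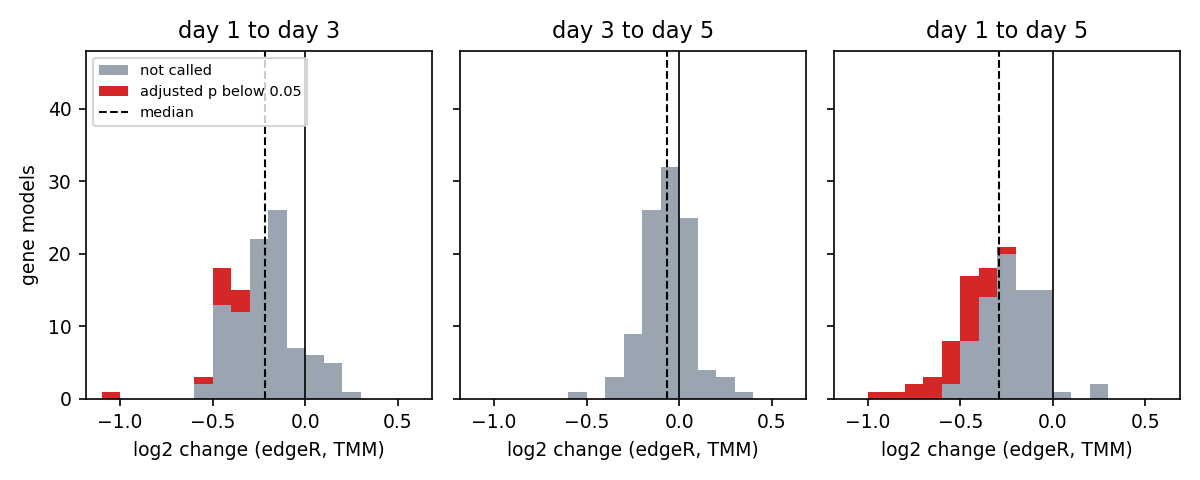
Histograms of the log2 change of the 104 gene models (edgeR, TMM scaling; vertical axis, number of gene models) in 3 steps between days that the rule did not use, with gene models past an adjusted p of 0.05 in red, 0 as a solid line and the median as a dashed line. The medians are -0.22 (day 1 to 3), -0.06 (day 3 to 5) and -0.29 (day 1 to 5), and 10, 0 and 27 gene models were called lower.

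The 27 members that fell from day 1 to 5 had a median log2 change of -0.47 in that step, with values from -0.98 to -0.28. All 10 members that fell by day 3 were among them. The other 77 had a median of -0.23, with values from -0.54 to 0.27. The 27 had more reads, with a median of 320 counts per day 1 library against 152 in the 77, and a median day 0 level of 67.3 CPM against 35.1 CPM. The part of read number in the calls was not tested. Library totals on gene models were 8995350 to 9774946 counts for day 1, 8185189 to 9623030 for day 3 and 5814275 to 7121976 for day 5, so day 5 values rest on fewer reads. By day 1 the 27 had reached a median of 68.6% of their day 7 log2 change and the 77 a median of 82.2%. Both shares are descriptions, since the libraries of days 0 and 7 entered the rule. The split into 27 and 77 also used the day 1 libraries, so a smaller share reached by day 1 is partly built into it.

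The lowest log2 change after day 1 was that of DjGI018424-001, the only ID of its first number. It had 35.3, 36.5 and 36.7 CPM on day 0, 16.1, 18.8 and 19.9 CPM on day 0.5 and 18.05, 17.23 and 21.2 CPM on day 1 (replicates 1 to 3). It then had 10.1, 7.82 and 9.35 CPM on day 3, 6.94, 11.2 and 11.5 CPM on day 5 and 7.70, 8.55 and 12.4 CPM on day 7. Libraries of days 0.5 and 1 overlapped, those of days 3, 5 and 7 overlapped, and the latter all lay below the former. The log2 change was -1.04 ± 0.16 from day 1 to 3 (SE; edgeR adjusted p = 0.000167). In the step from day 3 to 5 it was 0.06 ± 0.18 (SE; edgeR adjusted p = 0.965), and over days 1 to 5 it was -0.98 ± 0.17 (SE; edgeR adjusted p = 0.000136).

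The next lowest was DjGI001178-002. It had 19.9, 23.2 and 22.2 CPM on day 0, 12.9, 11.4 and 12.4 CPM on day 0.5 and 11.5, 13.1 and 16.4 CPM on day 1 (replicates 1 to 3). On day 3 it had 9.35, 10.8 and 8.83 CPM, on day 5 10.5, 5.33 and 6.74 CPM and on day 7 7.15, 7.05 and 10.6 CPM. Libraries of days 0.5 and 1 overlapped, and those of days 3, 5 and 7 all lay below day 1. Its log2 change was -0.89 ± 0.19 over days 1 to 5 (SE; edgeR adjusted p = 0.00145). The step from day 1 to 3 gave -0.50 ± 0.17 (SE; edgeR adjusted p = 0.135) and the step from day 3 to 5 gave -0.40 ± 0.20 (SE; edgeR adjusted p = 0.54). Its level is uncertain, since 3 IDs share its first number and its day 5 values rest on 31 to 74 counts. Both named IDs were picked as the 2 lowest values of a tested step, so the size of their change in it is that of an extreme among the 104.

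**Figure D3:**
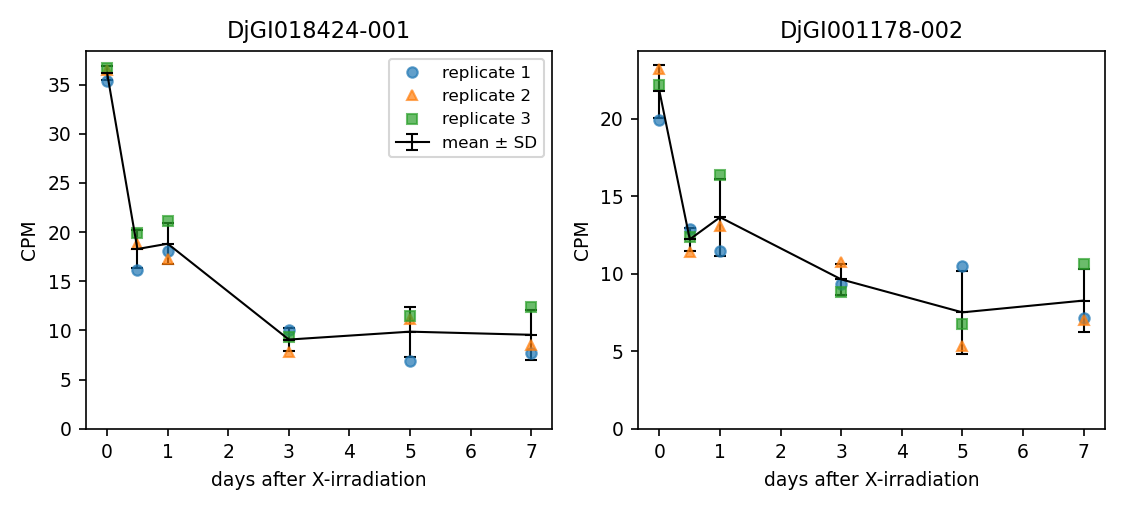
CPM of DjGI018424-001 (left) and DjGI001178-002 (right) in each library against days after X-irradiation, with 1 symbol per replicate and the mean ± SD of 3 libraries in black; both vertical axes start at 0. The left gene model had means of 18.3 CPM on day 0.5, 18.8 CPM on day 1 and 9.08 CPM on day 3, and the right one had 13.7 CPM on day 1, 9.65 CPM on day 3 and 7.52 CPM on day 5.

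Over days 1 to 5, 3 members had a log2 change above 0, and none of these passed the test. The highest was 0.27 ± 0.14 (SE; edgeR adjusted p = 0.251). That member had 18.4, 16.5 and 15.8 CPM on day 1, 20.5, 21.6 and 18.4 CPM on day 3 and 17.3, 22.4 and 23.4 CPM on day 5 (replicates 1 to 3). Its day 1 and day 5 libraries overlapped. It was also the member whose lowest mean was on day 1, whereas 23 members had it on day 3, 29 on day 5 and 51 on day 7.

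Against day 0, all members were lower on each day between the ends of the course. By edgeR (adjusted p below 0.05), 104 of 104 were lower on day 1 beside 12.8% of all gene models tested, 104 on day 3 beside 18.5%, and 104 on day 5 beside 20.9%. In CPM, all 104 members lay below day 0 without overlap on days 1, 3 and 5, beside 18.4%, 22.8% and 22.2% of all gene models tested. These comparisons share the day 0 libraries, which were used to choose the members, so nothing is read from the counts. The members' median log2 change from day 0 (CPM plus 0.5) was -1.03 for day 1, -1.26 for day 3 and -1.29 for day 5. Its values ran from -1.81 to -0.63 for day 1, from -2.03 to -0.64 for day 3 and from -2.13 to -0.70 for day 5. Medians over the 4963 gene models with at least 20 CPM on day 0 were 0.09, 0.09 and 0.10. A level 2-fold or more below day 0 was reached by 55 members on day 1, 90 on day 3 and 87 on day 5.

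**Figure D4:**
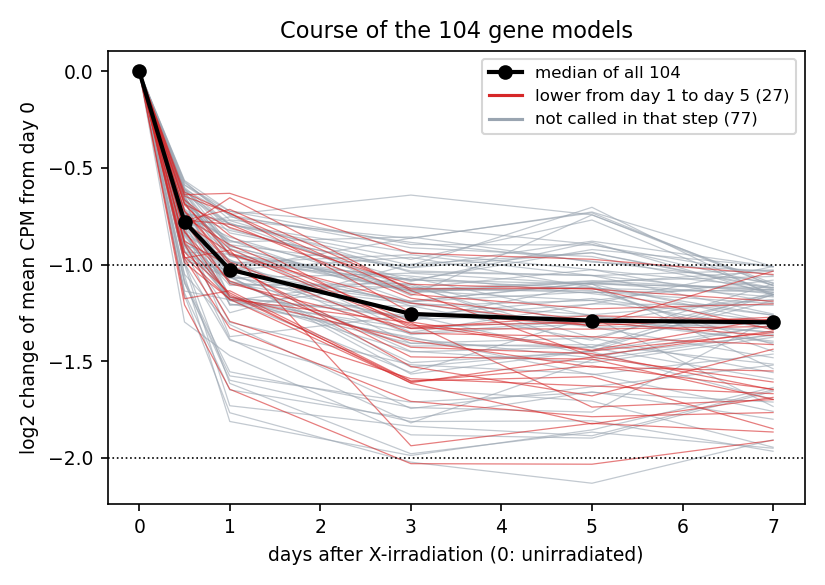
Log2 change of the mean CPM (plus 0.5) from day 0 for each of the 104 gene models against days after X-irradiation, in red for the 27 that were lower from day 1 to 5 by edgeR and in grey for the other 77, with the median of all 104 in black and the limits of the rule for day 7 (-1 and -2) dotted. The median is -0.78 on day 0.5, -1.03 on day 1, -1.26 on day 3, -1.29 on day 5 and -1.30 on day 7.

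The share of its day 7 log2 change that a member had reached describes its speed. On day 0.5, for which the rule required 50%, the median was 58.5% and 3 members had reached 80%. The member that was farthest then had reached 93.1%, with 152, 143 and 141 CPM on day 0 and 70.2, 73.0 and 79.7 CPM on day 0.5. Its level is uncertain, since 11 IDs share its first number. By day 1 the median was 75.9%, with quartiles of 68.4% and 87.0%, and 49 members had reached 80%. By day 3 the median was 95.5%, 92 members had reached 80%, and 37 stood at or below their day 7 level. By day 5 the median was again 95.5%, 94 had reached 80%, and 39 stood at or below their day 7 level. The highest share on day 5 was 138%, in a member with 25.6, 35.2 and 29.6 CPM on day 0, 10.1, 8.08 and 7.44 CPM on day 5 and 10.8, 10.5 and 15.2 CPM on day 7. All its day 5 libraries lay below all those of day 7.

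**Figure D5:**
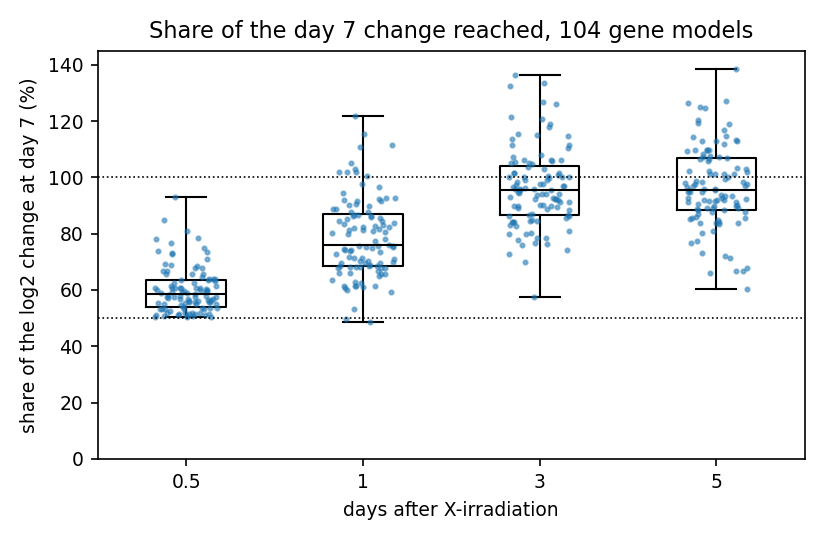
Share of the day 7 log2 change (vertical axis, in %) reached on days 0.5, 1, 3 and 5 by the 104 gene models (points, jittered sideways), with boxes for the quartiles and median, whiskers to the extremes, and dotted lines at 50% and 100%. The median is 58.5% on day 0.5, 75.9% on day 1 and 95.5% on days 3 and 5, and the rule sets the lower edge on day 0.5.

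The outer steps share libraries with the rule and are descriptions. From day 0.5 to 1 the median log2 change was -0.29 and 100 of 104 members were below 0. By edgeR 11 members (10.6%) were lower and 0 higher in it (adjusted p below 0.05), beside 0.847% and 0.234% of all gene models tested. Of those with at least 20 CPM on day 0, 2.196% were lower and 0.524% higher. Unadjusted p was below 0.05 in 52 members that were lower and 0 that were higher. Among the 4963 gene models with at least 20 CPM on day 0 these were 492 and 320. From day 5 to 7 the median was -0.06. By edgeR 0 members were lower and 0 higher in it (adjusted p below 0.05), beside 1.62% and 0.981% of all gene models tested. Of those with at least 20 CPM on day 0, 4.86% were lower and 1.53% higher. Unadjusted p was below 0.05 in 8 members that were lower and 1 that was higher, beside 828 and 402 of the 4963. DESeq2 was not run for these steps.

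There was no gap at the limits of the rule. The day 7 log2 change was -1.01 in the member nearest the limit of -1 and -0.999 in the nearest gene model outside it. At the limit of -2 the values were -1.97 inside and -2.02 outside. The lowest day 0 mean inside was 20.1 CPM and the highest outside 19.9 CPM. The smallest share of the day 7 change reached by day 0.5 was 50.4% inside, and the largest outside was 49.96%. There were 29 members between 50% and 55%, and 36 other gene models between 45% and 50%.

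Some members have related IDs. The 104 IDs carry 95 first numbers, and 29 members (27.9%) share theirs with at least 1 other ID, beside 27.1% of the 4963. In 6 first numbers more than 1 ID was a member, for 15 members in all. In the first of these, 4 of 6 IDs were members, with log2 changes from day 0 of -1.20 to -0.85 on day 1 and -1.57 to -1.14 on day 5. In another, 3 of 4 IDs were members, with -1.21 to -0.73 on day 1 and -1.43 to -1.31 on day 5. A pair that made up its whole first number had nearly equal means, 48.3 and 48.7 CPM on day 0 and 15.1 and 15.7 CPM on day 1. Reads may have been divided between such IDs, so these members are not independent.

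The members' first numbers hold 34 other IDs, of which 18 reached 20 CPM on day 0. Of these 18, 17 were below day 0 by day 7 and 7 had a log2 change of -1 or below. Their median log2 change was -0.55 on day 0.5, -0.77 on day 1 and -0.89 on day 5, beside -0.78, -1.03 and -1.29 in the members. Reads shared with the members may be among them.

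Gene models with the nearest courses differ in depth or in timing. With the same limits on level and timing but a day 7 log2 change of -2 or below, 15 gene models were found. Their median log2 change was -0.27 from day 1 to 3, 0.01 from day 3 to 5 and -0.35 over days 1 to 5, beside -0.22, -0.06 and -0.29 in the 104. Over days 1 to 5, 4 of the 15 (26.7%) were lower by edgeR (adjusted p below 0.05), beside 26.0% of the 104. With the same day 7 limits but 50% of the change reached by day 1 and not by day 0.5, 123 gene models were found. Their medians were -0.35, -0.18 and -0.51 in the same order, and 83 of them (67.5%) were lower over days 1 to 5 by edgeR. That set was chosen with its day 1 level, so its steps from day 1 are not independent of its rule. The differences between these sets were not tested.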

How the data were processed

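Estimated counts per gene model, not normalized, were deposited by the authors in 1 table with a column for each of the 18 libraries. Tools listed in the submitters' processing notes are Salmon, BWA 0.7.17-r1188 and fastp 0.21.0 (reference not given in the sources used here). A second deposited table holds the total count, the number of rows above 0 and the sampling day; these matched the first table and the labels in 18 of 18 libraries. The 92 ERCC rows (0.004% of counts) were left out of library totals and tests. For tests, the 38 values that were not whole, none of them of a member, were rounded.

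CPM were computed from totals over 25566 gene models, which were 4679195 to 12605652 counts per library. Tests used edgeR 4.0.16 in R 4.3.3 with its default filter on low counts (minimum count 10, minimum total 15; 17129 gene models left), TMM scaling (factors 0.94 to 1.13), all 18 libraries, 1 mean per group, and Benjamini-Hochberg adjustment over all gene models tested. Standard errors are the size of the log2 change divided by the square root of F. The procedure was also run on simulated data in which all gene models shared 1 spread between libraries, unlike these data. Nothing is read from that run. Replicates are called biological by the series. The p-values set a change against the spread within groups. In the main fit this spread was estimated from all 18 libraries, with information shared between gene models.

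The members, the sets compared and the tests were chosen with earlier results of these data known. The IDs named are the 2 members with the lowest log2 change from day 1 to 5 among those past the threshold whose libraries did not overlap; 2 places for rises stayed empty, as no member rose. Lists of cell type markers were not tested, since no names go with the IDs. Alternatives were DESeq2 1.42.0, 4 other scalings (RLE, upper quartile, library totals, ERCC), 2 other filters, a replicate block, only the 6 libraries compared, counts summed over first numbers, other pseudocounts, leaving out each library and, added after seeing the data, choosing members without day 0.5 replicate 2.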

Additional observations from a re-analysis of the deposited data

Results flagged for a closer look

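The steps between days 1, 3 and 5 test directly whether the difference from day 0 had another size on one day than on another. It was larger on day 5 than on day 1 in 27 members (26.0%) and larger on day 3 than on day 1 in 10 (9.62%; edgeR, adjusted p below 0.05). Of all gene models tested, 7.2% and 2.48% were lower in these steps, and of those with at least 20 CPM on day 0, 18.2% and 6.55%, and nothing particular to the members is read from the counts. Among the 27 are DjGI018424-001, with a log2 change of -0.98 over days 1 to 5, and DjGI001178-002, with -0.89. Dixon's test for a single library that stands apart was not applied to the 3 libraries of any group.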

How the results depend on the processing

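Of 178 recomputed values, 152 kept their direction and their size or side of the threshold, 26 moved and 0 reversed. This tally overstates stability, since it includes counts that were 0 in every alternative. These are members higher in each of the 3 steps and members lower over days 3 to 5, with 17 values for each count. The tolerance for counts was wide. Over days 1 to 5, 18 members lower without day 5 replicate 3 passed as kept, beside 27 in the main fit. Over days 1 to 3, the count of members lower moved in every fit with a library of these days left out. With ERCC scaling, 7 members were lower over days 1 to 5 and 1 over days 1 to 3, with medians of -0.27 and -0.18; the cause was not tested. Leaving out a library gave 15 to 21 and 3 to 5 members (14.4% to 20.2% and 2.88% to 4.81%, beside 14.5% to 15.8% and 3.47% to 5.54% of the gene models with at least 20 CPM on day 0). Apart from ERCC scaling, the other alternatives on the 104 gave 22 to 32 and 10 to 15 (21.2% to 30.8% and 9.62% to 14.4%). Beside these were 16.3% to 20.6% and 6.49% to 9.53% of the gene models with at least 20 CPM on day 0. Of the 73 gene models chosen without day 0.5 replicate 2, 18 (24.7%) and 7 (9.59%) were lower, beside 18.2% and 6.55%. No member was higher over these steps, or called over days 3 to 5, in any alternative. The members' median stayed below 0 in each of the 3 steps in every alternative. Over days 3 to 5 it came near 0, with values from -0.10 to -0.01 over the alternatives. The direction of these steps was partly set by the choice of members. Over all gene models, 1233 were lower and 643 higher over days 1 to 5, against 1085 and 883 with library totals and 730 and 212 with ERCC scaling.

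The median log2 change from day 0 was -1.06 on day 1 and -1.37 on day 5 with TMM, -1.19 on day 3 with ERCC scaling, -1.31 on day 5 with a pseudocount of 0.1, and -0.96, -1.19 and -1.22 on days 1, 3 and 5 with a pseudocount of 2. Without single libraries it was -1.05 to -1.003, -1.30 to -1.18 and -1.32 to -1.25. The rule found 73 to 131 gene models without single libraries and 90 to 109 otherwise. Over days 1 to 5, DjGI018424-001 changed by -1.12 to -0.77 (edgeR or DESeq2 adjusted p from 2.59e-06 to 0.00327) and DjGI001178-002 by -1.21 to -0.73 (adjusted p from 0.000161 to 0.0194).

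With the replicate number as a block, 27 members (26.0%) were lower over days 1 to 5, 12 (11.5%) over days 1 to 3 and 0 over days 3 to 5, beside 7.23%, 2.51% and 1.12% of all gene models tested and 18.3%, 6.79% and 3.1% of those with at least 20 CPM on day 0. Libraries with the same number correlated at -0.11 to 0.08 in their deviations from group means, and 1 of 9 correlated best with its own number. No pairing by number was seen, but this check cannot show that such libraries had no step of preparation in common. Depth limits the day 5 values most among the steps tested, with as few as 24 counts for a member in a library.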
